A study of Mus musculus with 12 samples.

Results

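Interferon-stimulated effector genes are the genes through which a cell carries out an interferon response: transcription factors that relay the signal, proteins that bind or degrade viral RNA, GTPases that attack viruses and intracellular parasites, and enzymes that attach ISG15 or ADP-ribose to other proteins. They were taken here as a list of 48 mouse symbols, which leaves out nucleic-acid sensors, class I antigen presentation and chemokines. All 48 were found among the 32544 gene rows of the table, and all 48 were among the 14279 genes abundant enough to test. The lowest estimated count of any member in any library was 13. The list names genes by their function, and it was drawn up with earlier results of these data known.

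The RNA came from 3T3 cells, an immortalised mouse fibroblast line, measured by bulk RNA sequencing in 4 groups of 3 libraries. Untreated cells formed 1 group. Cells of the other groups received extracellular vesicles (EVs, membrane-bound particles that cells shed) for 24 h. The donors were MDA-MB-468 cells, a human breast cancer line, in 3 versions: a control line (shCon), a line with CRIPTO knocked down (shCr), and 1 with raised CRIPTO expression (CrOE). The protein is a co-receptor at the cell surface for ligands of the TGF-beta family. The comparisons of EV groups with untreated cells ask what changed in fibroblasts with the vesicle treatment. The labels name no group given a preparation without vesicles. Effects of the vesicles therefore cannot be told apart from those of the handling that came with them. Those between EV groups ask what changed with the donor line, whose versions were made to differ in CRIPTO. The groups hold 1 control line, shCon, and no separate control for the raised expression. With CrOE EVs, an effect of CRIPTO therefore cannot be told apart from other differences between the donor lines. The vesicles were human and the recipient cells mouse, and each recipient was the same established line, so the groups differ by the vesicle treatment alone as far as the labels say. Nothing in the labels says that replicates were separate cultures. P-values therefore measure the spread between these libraries, which may be technical. The CrOE libraries were matched to their table columns by elimination, because those columns are headed with the protein's name alone. Their group name rests on that step.

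Type I interferons bind the receptor pair IFNAR1 and IFNAR2 and activate the kinases JAK1 and TYK2. These phosphorylate STAT proteins, among them STAT2, which joins IRF9 in a complex that binds the interferon-stimulated response element (ISRE) in promoters. Interferon gamma acts through STAT dimers, which bind the gamma-activated site (GAS), and through IRF1. Fibroblasts make and answer interferon beta, and many of these genes have a resting level in them without added interferon.

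Libraries held 25960054 to 37774020 estimated counts. Mitochondrially encoded genes took 0.495% to 1.70% of them, with the full range nearly covered inside the untreated group (0.495% to 1.64%). Tdgf1, the mouse gene of CRIPTO, had 0 to 3 counts in every library, so these libraries hold no check of the knockdown or overexpression in the human donor cells. The summed level of 8 fibroblast markers was 18723 to 20217 CPM in untreated cells, 24077 to 24387 with shCon EVs, 14498 to 16789 with shCr EVs and 8424 to 8790 with CrOE EVs. CPM is the count relative to library size, scaled by TMM, a correction for differences in RNA composition. No fibroblast marker was at 0 in any group. Endothelial markers summed to at most 2.56 CPM and epithelial markers to at most 2.22 CPM, with Epcam at 0 throughout. The 9 leukocyte and macrophage markers summed to 129 to 141 CPM in untreated cells, 123 to 134 with shCon EVs, 173 to 246 with shCr EVs and 32.6 to 38.3 with CrOE EVs. Without Lyz2, the lysozyme gene, the sums were 79.7 to 90.5, 49.3 to 50.4, 52.6 to 60.1 and 31.2 to 37.1 CPM. Adgre1 and Cd3e were at 0 in the untreated and CrOE groups. The part of these marker changes in the results below was not tested.

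Promoters of RefSeq genes (build GRCm38.p6, from 250 bases before the transcription start to 50 after it) were found for 39 of the 48 members. The ISRE letters, read on both strands as GAAA, any 2 bases and GAAA, occurred in 19 of these 39 (48.7%), against 1079 of 27025 genes (3.99%). The GAS letters TTCNNNGAA, which read the same on both strands, occurred in 8 of 39 (20.5%), against 9.55% of all genes. Both motifs occurred in 4 members. The promoters printed here are those of the members that had an ISRE match, at least 10 CPM with shCon EVs and the largest difference between CrOE and shCon EVs. Each line gives the 250 bases before the start, on the + strand, with ISRE matches in capitals.
Ifit3b (chr19:34607707-34607956): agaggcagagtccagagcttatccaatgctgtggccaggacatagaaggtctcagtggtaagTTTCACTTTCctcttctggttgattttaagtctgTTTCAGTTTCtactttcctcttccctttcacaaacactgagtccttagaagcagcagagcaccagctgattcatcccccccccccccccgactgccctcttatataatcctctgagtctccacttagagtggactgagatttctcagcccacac
Ifit3 (chr19:34583279-34583528): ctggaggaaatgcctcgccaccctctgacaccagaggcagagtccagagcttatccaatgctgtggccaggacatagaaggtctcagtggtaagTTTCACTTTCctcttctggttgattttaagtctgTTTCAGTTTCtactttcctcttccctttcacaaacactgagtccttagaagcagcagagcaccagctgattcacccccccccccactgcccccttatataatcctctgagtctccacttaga
Gbp7 (chr3:142530086-142530335): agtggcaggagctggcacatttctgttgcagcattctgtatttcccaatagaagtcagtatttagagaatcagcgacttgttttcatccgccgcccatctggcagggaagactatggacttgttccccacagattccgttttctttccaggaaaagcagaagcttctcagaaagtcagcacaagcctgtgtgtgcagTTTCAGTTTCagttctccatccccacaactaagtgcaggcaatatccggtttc
The neighbouring genes Ifit3b and Ifit3 share an unbroken run of 169 bases in these 250. Both carry 2 ISRE matches, and in both the matches begin 34 bases apart. The matches of Ifit3 begin 156 and 122 bases before the start, and those of Ifit3b 188 and 154. Gbp7 has 1 match, 53 bases before its start. Isg15 has 3 overlapping matches that begin between 78 and 66 bases before the start, and Oas1a and Oas1g each have 2 overlapping ones that begin at most 20 bases before it. A match is only a match of letters and no binding was measured.

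The members followed 1 main pattern. They were somewhat higher with shCon and shCr EVs than in untreated cells, and far lower with CrOE EVs than in any other group. Together the members took 0.492% to 0.549% of the counts of untreated libraries, 0.761% to 0.823% with shCon EVs, 0.741% to 0.969% with shCr EVs and 0.0958% to 0.117% with CrOE EVs. For 46 of the 48 members the mean was lowest with CrOE EVs and higher with both shCon and shCr EVs than in untreated cells. This order of means was not counted over all tested genes. Rises with shCon EVs and falls with CrOE EVs, with a called difference between the vesicles, were found together for 41 members and 5.60% of all tested genes. For shCr and CrOE EVs they were found for 42 members and 7.51% of genes. In 45 members all 3 CrOE EV libraries lay below the other 9 libraries, and this was so for 30.7% of all tested genes. The exceptions were Ifi27, Isg20 and Oasl1. In a bulk sample, fewer cells that express a gene and less of its RNA per cell cannot be told apart.

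**Figure D1:**
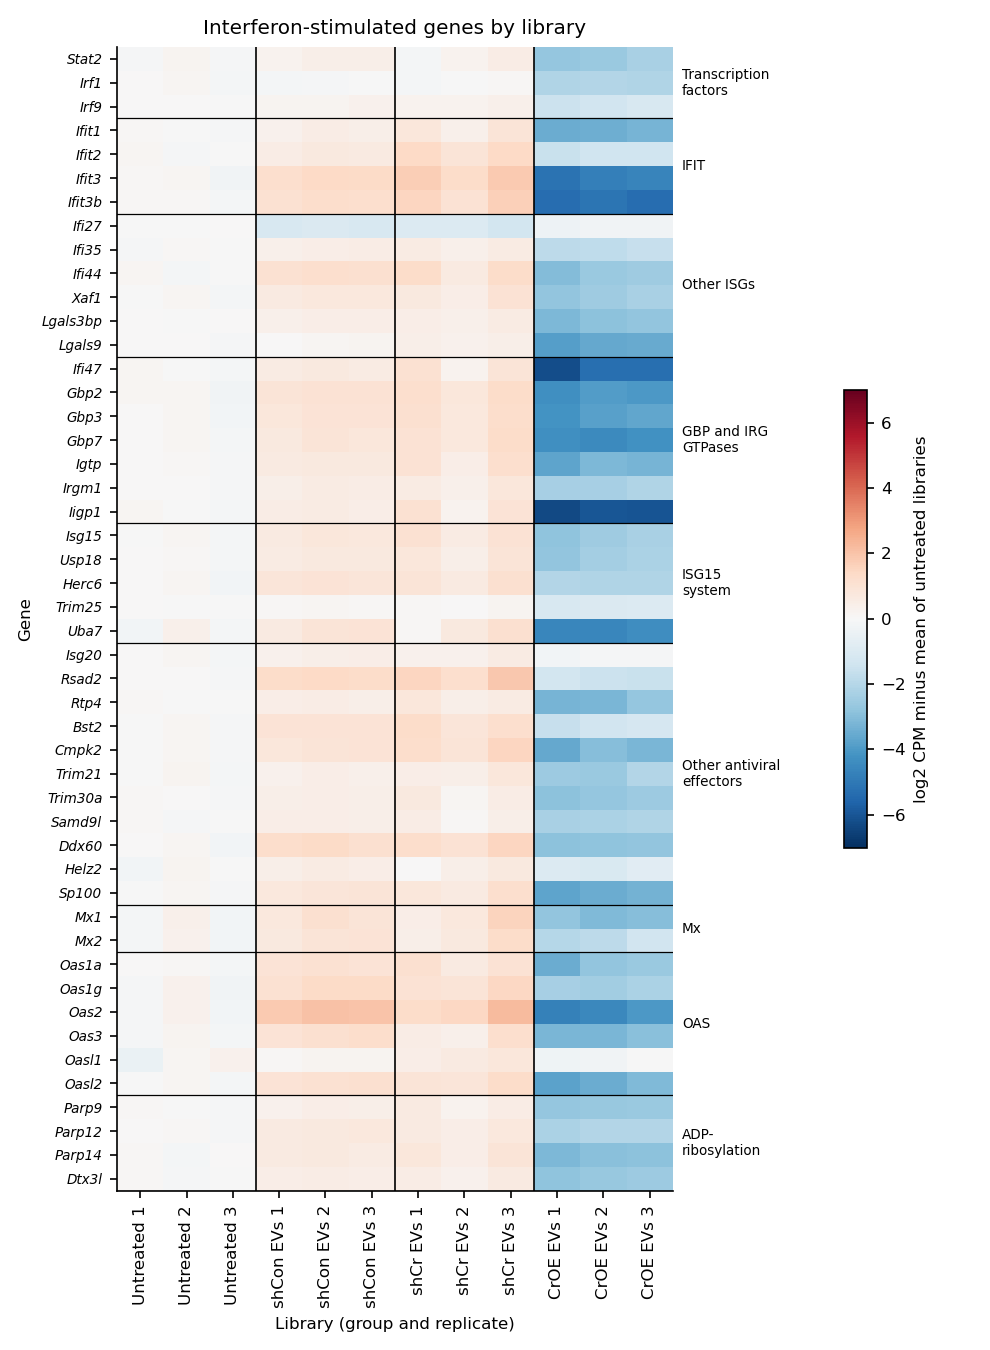
Each row is a member and each column a library, with colour for the log2 CPM minus the mean of the 3 untreated libraries. The CrOE EV columns are blue in nearly every row, the shCon and shCr EV columns are pale red, and Ifi27 is the row that is blue with shCon and shCr EVs.

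With shCon EVs, 42 members rose against untreated cells, Ifi27 fell, and 5 passed no threshold (Stat2, Irf1, Oasl1, Trim25 and Lgals9). A member was called where its Benjamini-Hochberg adjusted p over all tested genes was under 0.05 in the quasi-likelihood test of edgeR. In this comparison 18.0% of all tested genes were called higher and 20.2% lower. The median log2 fold change was 0.65 over the members and 0.0069 over all tested genes. Library values did not overlap between the groups, with shCon EVs higher, for 45 members, and this was so for 26.6% of all tested genes. Ifi27 was lower without overlap, as were 27.7% of all tested genes. The rises were modest: 9 members rose at least 2-fold, and 2.51% of all tested genes did.

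With shCr EVs, 44 members rose against the same untreated libraries, Ifi27 fell, and Stat2, Irf1 and Trim25 were not called. Of all tested genes, 18.4% were called higher and 18.8% lower. The median log2 fold change was 0.74 over the members and 0.020 over all genes. At least 2-fold rises were found for 13 members and 2.75% of all tested genes. Without overlap, 42 members were higher and Ifi27 lower, against 20.8% and 21.1% of all tested genes. The untreated libraries serve in both comparisons, so chance deviations in them enter both. Of the members, 42 were called higher in both, as were 13.0% of all tested genes.

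With CrOE EVs, 46 members fell against untreated cells and none rose, with Isg20 and Oasl1 not called. Falls made up 37.0% of all tested genes in this comparison and rises 36.7%, so the share of genes that moved was itself large. The median log2 fold change was -2.67 over the members and 0.0078 over all genes. A fall of at least 4-fold was found for 37 of 48 members and 8.64% of all tested genes, and a fall of at least 10-fold for 14 members and 3.34% of genes. Libraries did not overlap, with CrOE EVs lower, for 46 members and 38.8% of all tested genes. Fibroblast markers other than Fn1 also fell in the same libraries, from -1.14 (Col1a2) to -3.16 (Pdgfra, a growth factor receptor) on the log2 scale. Col1a1, a collagen I chain, was at -2.65, and Fn1 was not called (-0.14). The part of that wider change in the members' falls was not tested.

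**Figure D2:**
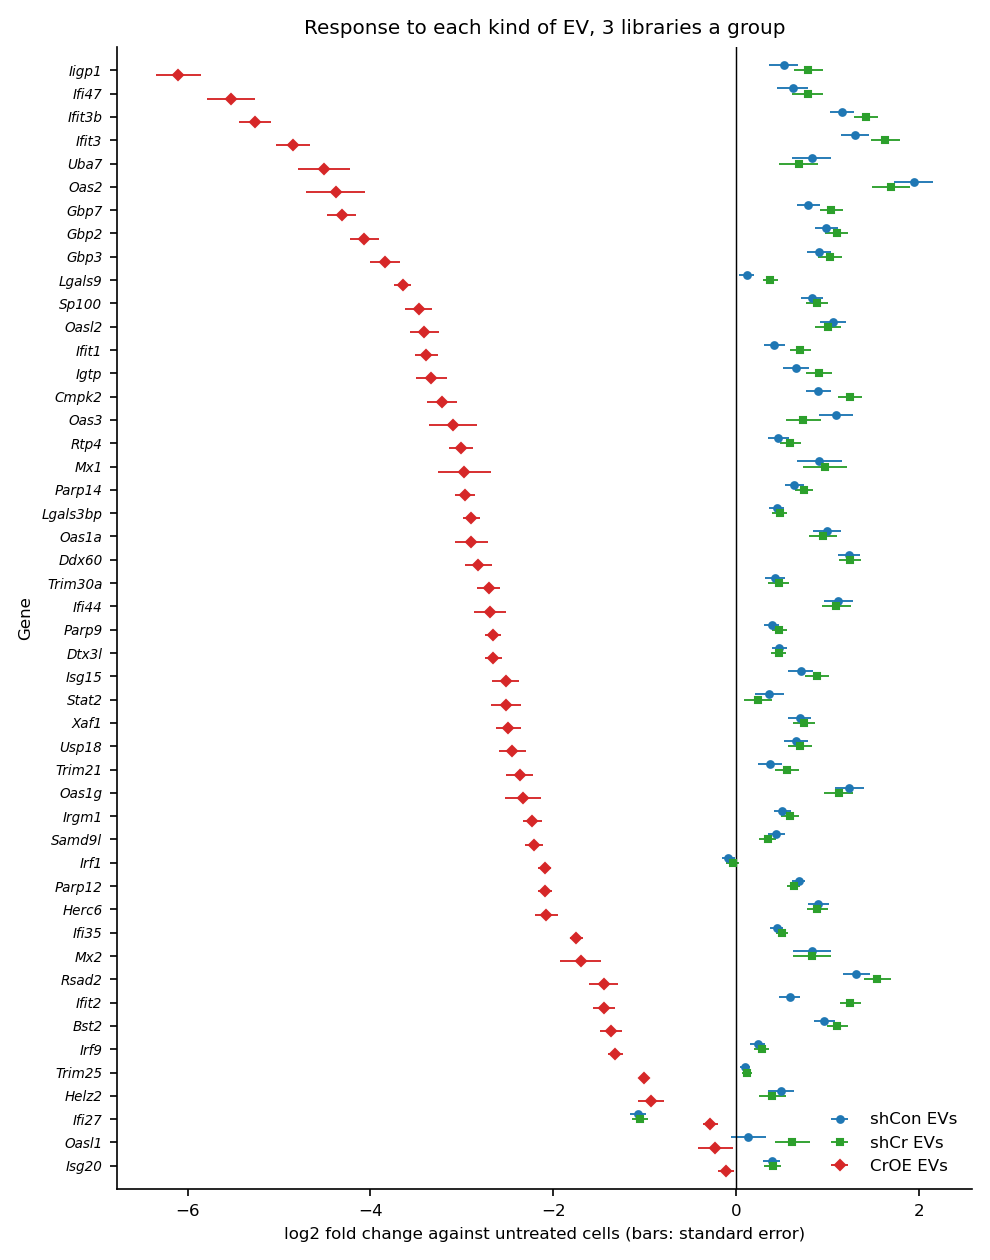
Each row is a member, with its log2 fold change against untreated cells after shCon (circles), shCr (squares) and CrOE EVs (diamonds), and bars for the standard error. The diamonds reach from -6.10 (Iigp1) to -0.11 (Isg20), and the circles and squares lie right of 0 apart from Ifi27 and Irf1.

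Among the transcription factors, Stat2, a subunit of the ISRE-binding complex, stood at 370, 450 and 378 CPM in untreated libraries and 469, 535 and 536 with shCon EVs. It was at 361, 468 and 578 CPM with shCr EVs and at 60.0, 66.2 and 82.5 with CrOE EVs. The shCon EV libraries lay above the untreated ones without passing the test (log2 fold change 0.36, SE 0.15, Benjamini-Hochberg adjusted p = 0.0822 in edgeR). A model of only these groups called Stat2 higher, with an adjusted p of 0.00749 in edgeR. The shCr EV libraries overlapped the untreated ones (0.23, SE 0.15). The CrOE EV libraries were below all the others, 5.74-fold lower than untreated cells.

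Irf1, the factor induced early by interferon gamma, had the smallest log2 fold change of all members against untreated cells with shCon EVs (-0.09) and with shCr EVs (-0.04). Its levels were 110, 117 and 98.0 CPM in untreated libraries, 98.3, 103 and 105 with shCon EVs, and 98.6, 104 and 113 with shCr EVs. These 3 groups overlapped. With CrOE EVs its 3 libraries lay between 24.7 and 26.2 CPM, a fall of 4.28-fold. Exons of an antisense gene overlap Irf1, and whether the counting used strand is not given in the sources used here. Irf9, the DNA-binding subunit of the complex, rose slightly with shCon EVs (0.24, SE 0.08) and with shCr EVs (0.28, SE 0.08) and fell by 1.32 on the log2 scale with CrOE EVs.

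The IFIT proteins bind foreign RNA and block its translation. All 4 members of the family rose with shCon EVs and with shCr EVs, and all 4 fell with CrOE EVs. Ifit3 stood at 322, 341 and 262 CPM in untreated libraries, 697, 799 and 782 with shCon EVs, and 1015, 744 and 1105 with shCr EVs. With CrOE EVs it was at 8.50, 11.0 and 12.7 CPM. No shCon or shCr EV library overlapped the untreated ones, and the CrOE EV libraries were 28.7-fold below untreated cells and 70.7-fold below shCon EV libraries. The log2 fold change against untreated cells was 1.30 (SE 0.15) for shCon EVs, 1.63 (SE 0.15) for shCr EVs and -4.84 (SE 0.18) for CrOE EVs, with the adjusted p at most 2.93e-05 in edgeR's test.

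Ifit3b, its close copy, had 104, 106 and 88.7 CPM in untreated libraries, 208, 230 and 228 with shCon EVs, and 281, 200 and 314 with shCr EVs. It fell to 2.47, 2.85 and 2.44 CPM with CrOE EVs, 38.3-fold below untreated cells. Of the 31-base stretches of Ifit3, 61.8% also occur in Ifit3b, so reads can pass between these genes and their separate values are uncertain. Their sum does not depend on that split. It was 351 to 447 CPM in untreated libraries, 904 to 1028 with shCon EVs, 944 to 1419 with shCr EVs and 11.0 to 15.1 with CrOE EVs, again without overlap between the CrOE EV group and the others.

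Ifit1 rose by 0.41 (SE 0.12) with shCon EVs and 0.70 (SE 0.12) with shCr EVs on the log2 scale, and fell by 3.39 with CrOE EVs. Ifit2 differed from its family in the size of its fall, 1.45 with CrOE EVs against untreated cells. Its levels were 105, 88.8 and 92.9 CPM in untreated libraries, 135, 151 and 145 with shCon EVs, 251, 179 and 250 with shCr EVs and 32.7, 36.9 and 35.6 with CrOE EVs. None of these 4 groups overlapped another.

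The 2-5 oligoadenylate synthetases sense double-stranded RNA and make a second messenger that leads to RNA decay. Oas2 had the largest rise of all members with shCon EVs and with shCr EVs. It read 13.1, 17.3 and 12.3 CPM in untreated libraries, 50.4, 57.4 and 56.1 with shCon EVs, and 34.4, 38.2 and 64.9 with shCr EVs. The rise was 1.94 on the log2 scale (SE 0.21) with shCon EVs and 1.69 (SE 0.21) with shCr EVs, where replicate 3 stood apart from the other libraries. With CrOE EVs it was at 0.539, 0.611 and 0.870 CPM, from 17 to 31 counts a library, 20.8-fold below untreated cells.

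Oas1a, Oas1g, Oas3 and Oasl2 rose in both comparisons, by 0.99 to 1.24 with shCon EVs and 0.73 to 1.12 with shCr EVs on the log2 scale. They fell by 2.33 to 3.41 with CrOE EVs. Oas1a and Oas1g are near copies, with 68.8% of the 31-base stretches of Oas1a in Oas1g. Their summed level was 41.7 to 50.3 CPM in untreated libraries, 89.1 to 99.8 with shCon EVs, 72.9 to 99.5 with shCr EVs and 5.04 to 7.92 with CrOE EVs.

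Oasl1, a family member that lacks synthetase activity, was the faintest member in untreated cells. It read 1.17, 1.79 and 1.95 CPM in untreated libraries, 1.72, 1.86 and 1.80 with shCon EVs, 2.19, 2.50 and 2.81 with shCr EVs and 1.30, 1.34 and 1.54 with CrOE EVs. The shCr EV libraries were above the untreated ones (log2 fold change 0.61, SE 0.19, Benjamini-Hochberg adjusted p = 0.0202 in edgeR). Neither the shCon EV libraries (0.13, SE 0.19) nor the CrOE EV libraries (-0.23, SE 0.20) were called, and both overlapped the untreated range.

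The Mx GTPases trap viral nucleocapsids. Mx1 and Mx2 rose by 0.91 and 0.83 on the log2 scale with shCon EVs and by 0.97 and 0.83 with shCr EVs. They fell by 2.97 and 1.70 with CrOE EVs. Replicates of Mx1 were far apart, at 44.0, 52.7 and 94.6 CPM in the shCr EV libraries and 28.6, 41.8 and 27.6 in the untreated ones.

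The guanylate-binding proteins and immunity-related GTPases are recruited to pathogen vacuoles. All 7 rose with shCon EVs and with shCr EVs, and all 7 fell at least 4-fold with CrOE EVs, with a family median of -4.07 on the log2 scale. Iigp1 had the largest fall of the 48 members. It stood at 57.0, 52.0 and 47.8 CPM in untreated libraries, 75.2, 77.4 and 72.0 with shCon EVs, and 108, 61.3 and 101 with shCr EVs. With CrOE EVs it was at 0.666, 0.815 and 0.786 CPM, from 21 to 28 counts a library, 68.6-fold below untreated cells and 98.2-fold below shCon EV libraries (log2 fold change -6.62, SE 0.24, Benjamini-Hochberg adjusted p = 7.14e-11 in edgeR).

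Ifi47, another of these GTPases, read 33.9, 30.3 and 28.5 CPM in untreated libraries, 46.0, 50.2 and 45.9 with shCon EVs and 65.1, 36.7 and 57.3 with shCr EVs. It fell to 0.412, 0.785 and 0.786 CPM with CrOE EVs, 46.0-fold below untreated cells. An antisense gene overlaps its exons as well. Gbp2, Gbp3 and Gbp7, which coat vacuoles and bacteria, rose by 0.79 to 0.98 with shCon EVs and 1.03 to 1.10 with shCr EVs, and fell by 3.84 to 4.31 with CrOE EVs. Igtp (Irgm3) rose by 0.65 and 0.91 and fell by 3.33. Irgm1, which regulates the other immunity-related GTPases, fell least of the group, by 2.23.

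In the ISG15 system, Isg15 is the ubiquitin-like modifier, Uba7 its activating enzyme, Herc6 its ligase in mice and Usp18 the protease that removes it. These 4 rose with shCon EVs by 0.65 to 0.89 on the log2 scale and with shCr EVs by 0.68 to 0.89. With CrOE EVs Isg15 fell by 2.52, Usp18 by 2.45, Herc6 by 2.08, and Uba7 fell by 4.50. Isg15 itself was at 116, 129 and 105 CPM in untreated libraries, 180, 200 and 191 with shCon EVs, 243, 171 and 232 with shCr EVs, and 16.7, 20.5 and 23.7 with CrOE EVs. Trim25, a ubiquitin ligase, had 181, 180 and 180 CPM in untreated libraries, 190, 198 and 190 with shCon EVs and 193, 185 and 208 with shCr EVs. Those libraries lay just above the untreated ones but were not called (0.09 and 0.11, SE 0.06 each). It fell 2.02-fold with CrOE EVs, to 83.7, 91.1 and 93.7 CPM.

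Parp9, Parp12 and Parp14 transfer ADP-ribose to proteins, and Dtx3l is the ubiquitin ligase that pairs with Parp9. These members moved in a narrow band, by 0.39 to 0.68 with shCon EVs, 0.46 to 0.74 with shCr EVs and -2.97 to -2.09 with CrOE EVs on the log2 scale. All 4 were called in all 3 comparisons. Parp9 and Dtx3l lie head to head with overlapping exons on opposite strands, so their counts may share reads.

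Of the 11 other antiviral effectors, all rose with shCon EVs and with shCr EVs, and 10 fell with CrOE EVs. Rsad2 encodes viperin, which makes a chain-terminating nucleotide. It was at 18.8, 18.6 and 17.6 CPM in untreated libraries, 44.0, 47.8 and 44.9 with shCon EVs, 51.3, 40.8 and 68.1 with shCr EVs, and 7.45, 6.52 and 6.23 with CrOE EVs. The groups did not overlap except shCon with shCr EVs. Its rises (1.31 and 1.54, SE 0.15 and 0.14) were among the 3 largest in both comparisons, while its fall was among the smaller ones (-1.45, SE 0.16). Cmpk2, its neighbour and the kinase that supplies its substrate, rose by 0.90 and 1.24 and fell further, by 3.22.

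Bst2, or tetherin, which holds budding virus particles at the cell surface, rose by 0.96 and 1.10 and fell by 1.37. Ddx60, an RNA helicase, rose by 1.23 and 1.25 and fell by 2.82. Trim21, an antibody receptor and ubiquitin ligase, Trim30a, Rtp4, Samd9l and Sp100, a nuclear body protein, rose by 0.37 to 0.83 and 0.34 to 0.88 with changes of -3.47 to -2.21 with CrOE EVs. Helz2, a nuclear receptor coactivator, rose by 0.49 and 0.39 and fell by 0.93, the smallest called fall apart from Ifi27. Isg20, a 3' exonuclease, was one of the members not lower than in untreated cells by the test. It read 18.5, 20.0 and 16.7 CPM in untreated libraries, 22.3, 24.5 and 25.3 with shCon EVs, 22.9, 22.7 and 26.9 with shCr EVs and 15.9, 17.6 and 17.5 with CrOE EVs. The CrOE EV libraries overlapped the untreated ones (log2 fold change -0.11, SE 0.09).

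Of the 6 remaining members, Ifi35, Ifi44, Xaf1 and Lgals3bp followed the main pattern, with rises of 0.44 to 1.12 with shCon EVs and 0.47 to 1.09 with shCr EVs and falls of 1.75 to 2.90 with CrOE EVs. Lgals9, the gene of the glycan-binding protein galectin-9, was at 297, 298 and 275 CPM in untreated libraries, 299, 313 and 329 with shCon EVs, 388, 352 and 384 with shCr EVs and 19.7, 24.2 and 25.4 with CrOE EVs. Only the shCr EV rise (0.37, SE 0.08) and the 12.5-fold fall were called against untreated cells.

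Ifi27, a gene for a small hydrophobic membrane protein, ran opposite to the other called members with shCon and shCr EVs against untreated cells. With CrOE EVs it fell, as they did. It stood at 94.7, 93.9 and 97.2 CPM in untreated libraries, 44.4, 47.1 and 44.0 with shCon EVs, 49.6, 49.4 and 38.9 with shCr EVs, and 73.4, 81.5 and 80.0 with CrOE EVs. It fell 2.11-fold with shCon EVs and 2.07-fold with shCr EVs, and only 1.22-fold with CrOE EVs. The CrOE EV libraries were thus above both other EV groups, by 0.79 (SE 0.08) and 0.77 (SE 0.08) on the log2 scale. It was the member called higher in those comparisons.

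**Figure D3:**
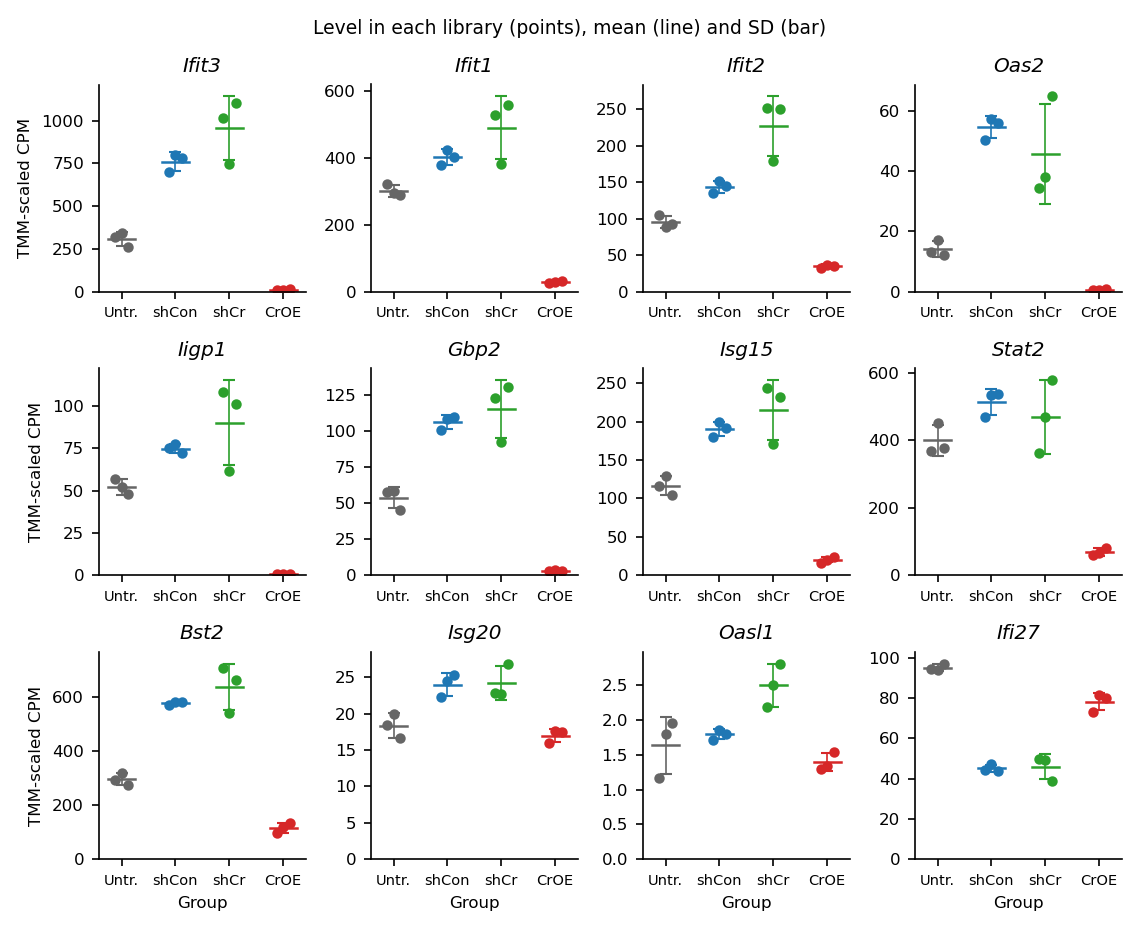
Points are libraries, lines group means and bars the SD of 3 libraries, in TMM-scaled CPM on axes from 0, for 12 members in the untreated, shCon, shCr and CrOE EV groups. Ifit3, Oas2 and Iigp1 lie near 0 with CrOE EVs, Isg20 and Oasl1 overlap the untreated range there, and Ifi27 is lowest with shCon and shCr EVs.

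Levels were compared between members as mean CPM per kilobase of exon. Bst2 ranked first in all 4 groups, at 328 CPM per kilobase in untreated cells, 640 with shCon EVs and 127 with CrOE EVs. Ifit3 ranked second in untreated cells (177) and with shCon EVs (435), and 17th with CrOE EVs (6.14). Ifi27 went from 8th in untreated cells (64.9) to 24th with shCon EVs (30.8) and 2nd with CrOE EVs (53.4). The order of the members by level thus differed between groups, also between untreated cells and shCon EVs.

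Few members were told apart between knockdown and control vesicles. Between shCr and shCon EVs, 1 member was called, Ifit2, which was higher with shCr EVs. In this comparison 5.22% of all tested genes were called higher and 3.51% lower. The median log2 difference was 0.049 over the members and 0.0043 over all genes. The members' median was 0.17 without shCr replicate 2, -0.00053 without shCr replicate 3 and 0.018 without shCon replicate 1. Values of the shCr EV libraries were all above the shCon ones for 3 members, Ifit2, Oasl1 and Lgals9, and for 15.5% of all tested genes. None was below without overlap, as 12.5% of all tested genes were, and 45 overlapped. An unadjusted p under 0.05 was found for 6 of 48 members and 22.5% of all tested genes.

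Ifit2 was 1.58-fold higher with shCr than with shCon EVs (log2 fold change 0.66, SE 0.11, Benjamini-Hochberg adjusted p = 0.00316 in edgeR). The shCr EV libraries had 251, 179 and 250 CPM and the shCon ones 135, 151 and 145. Oasl1 (0.48, SE 0.18) and Lgals9 (0.26, SE 0.08) were not called, with adjusted p = 0.134 and 0.0697 in the same edgeR fit. The other members lay between -0.35 (Oas3) and 0.34 (Cmpk2) and were not called, with a median SE of 0.12 over the members.

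The shCr EV libraries limit this comparison, since they spread more than the others. The median coefficient of variation of a member was 17.7% in that group, against 4.98% with shCon EVs, 8.91% in untreated cells and 11.4% with CrOE EVs. Over all tested genes it was 10.7% with shCr EVs. Replicate 3 was the highest of the group for 34 members and replicate 2 the lowest for 38, and these shares were 30.6% and 25.5% of all tested genes. Replicate 1 was lowest for 9 members: Stat2, Irf1, Irf9, Mx1, Mx2, Oas2, Oasl1, Helz2 and Uba7. Without replicate 2, 7 members were called higher with shCr EVs (Ifit1, Ifit2, Ifit3b, Cmpk2, Gbp7, Igtp and Iigp1), while 6.62% of all genes tested in that fit were called in either direction. Without replicate 3, 3 were called: Ifit2 higher, Oas2 lower (-0.59) and Oas3 lower (-0.65). Of all genes in that fit, 8.44% were called. Without replicate 1, Ifit2 was again the member called, beside 9.58% of all genes.

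**Figure D4:**
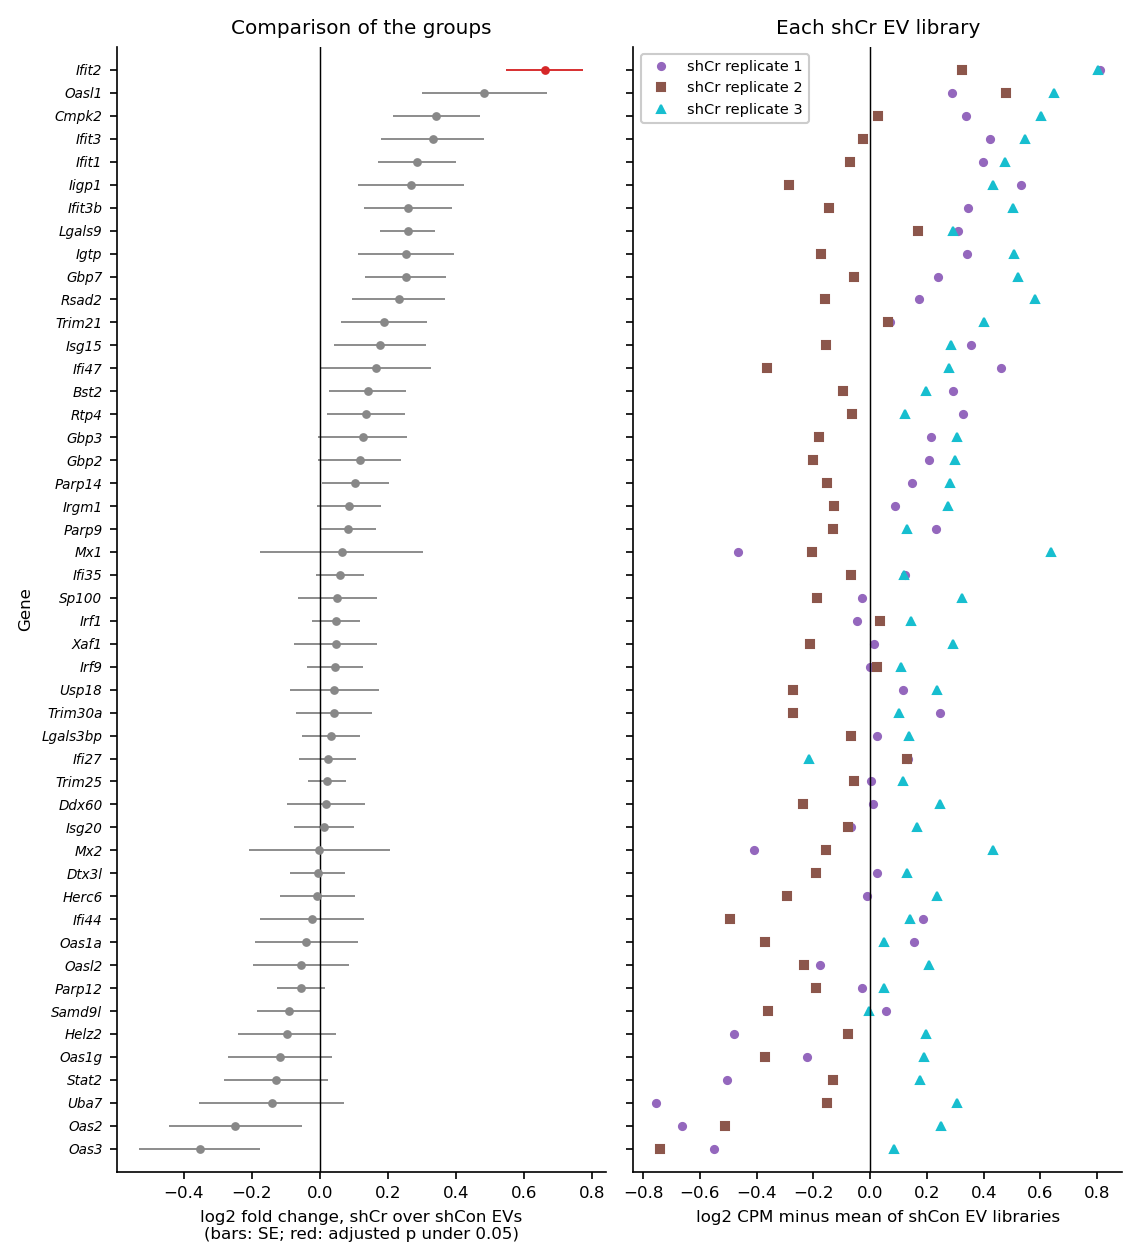
At left, the log2 fold change of each member between shCr and shCon EVs, with the standard error as bars and Ifit2 in red as the member called. At right, the 3 shCr EV libraries as log2 CPM minus the mean of the shCon EV libraries, where replicate 3 (triangles) is mostly right of replicate 2 (squares).

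Against both other kinds of vesicle, CrOE EVs gave far lower levels. Against shCon EVs, 46 members were lower, Ifi27 was higher and Oasl1 was not called (-0.36, SE 0.19), while 36.1% of all tested genes were lower and 36.5% higher. The median log2 fold change was -3.28 over the members and 0.0075 over all genes. The difference was at least 4-fold for 42 members and 7.92% of all tested genes, and at least 10-fold for 24 members and 2.94% of genes. The largest falls were those of Iigp1 (-6.62), Ifit3b (-6.42) and Oas2 (-6.32).

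Against shCr EVs, 47 members were lower and Ifi27 higher, with 37.0% of all tested genes lower and 36.9% higher. The median was -3.39 over the members and 0.0076 over all genes. The largest falls were in Iigp1 (-6.89, SE 0.24), Ifit3b (-6.67, SE 0.18) and Ifit3 (-6.47, SE 0.20), and 42 members were at least 4-fold lower, as were 8.71% of all tested genes. These comparisons share the CrOE EV libraries with each other and with the comparison with untreated cells. Library ranges did not overlap for any member in either comparison, with 47 lower and Ifi27 higher in each. Of all tested genes, 39.8% were lower and 40.7% higher without overlap against shCon EVs, and 36.9% and 37.1% against shCr EVs.

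Among the 39 members with a promoter window, the 19 with an ISRE match had a median log2 fold change of 0.90 with shCon EVs, 0.95 with shCr EVs and -2.90 with CrOE EVs against untreated cells. For the 20 without a match these medians were 0.54, 0.62 and -2.15. The ranges overlapped widely, from -5.26 to -1.37 with a match and from -5.52 to -0.11 without one with CrOE EVs.

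The rest of the interferon pathway was followed in 48 further genes, of which 32 were abundant enough to test. None of the 14 interferon genes was tested. Of these, 8 had no count in any library, and the others had at most 14 counts in a library. Ifnb1, the interferon beta gene, had 3 to 5 counts in untreated libraries, 3 to 13 with shCon EVs, 4 to 7 with shCr EVs and 4 to 8 with CrOE EVs, so a difference between groups was not detectable at this depth.

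Of the receptor genes, Ifnar1 was at 158, 156 and 148 CPM in untreated libraries, 152, 154 and 151 with shCon EVs, 171, 164 and 152 with shCr EVs and 172, 175 and 165 with CrOE EVs. It was called slightly higher with CrOE EVs (0.15, SE 0.05). Its partner Ifnar2 was at 108, 104 and 106 CPM in untreated libraries, 100, 96.8 and 95.3 with shCon EVs, 114, 112 and 110 with shCr EVs and 51.3, 53.8 and 52.4 with CrOE EVs, a fall of 1.01 on the log2 scale. Ifnar2 was also called between shCr and shCon EVs (0.20 higher). Ifngr1 and Ifngr2, the receptor chains for interferon gamma, fell by 0.46 and 0.57 with CrOE EVs, and Il10rb, a chain of the interferon lambda receptor, fell by 1.59. Ifnlr1, the other lambda receptor chain, was too low to test.

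Jak1 fell after all 3 kinds of EV, by 0.28, 0.31 and 0.54, and so did Jak2, by 0.51, 0.45 and 0.72. Tyk2 rose by 0.57 with shCon EVs and 0.72 with shCr EVs and fell by 0.34 with CrOE EVs. Irf7, the factor that amplifies interferon alpha production, had the pattern of the members, with 72.8, 96.2 and 74.6 CPM in untreated libraries and 120, 145 and 139 with shCon EVs. It was at 141, 127 and 179 CPM with shCr EVs and at 4.95, 6.28 and 7.10 with CrOE EVs. The CrOE EV libraries lay below all the others, and Irf7 fell by 3.73 on the log2 scale. Irf3, which is activated by phosphorylation in sensing cells, was called in none of the 6 comparisons, and its CrOE EV value was 0.04 (SE 0.13) against untreated cells.

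Of the 7 negative regulators, 5 fell with shCon EVs, 5 with shCr EVs and 5 with CrOE EVs, where Ptpn2 rose. Falls made up 20.2%, 18.8% and 37.0% of all tested genes in these comparisons, and rises with CrOE EVs 36.7%. Socs3, a feedback inhibitor of JAK kinases, was at 191, 202 and 190 CPM in untreated libraries, 66.1, 66.8 and 68.1 with shCon EVs, 61.7, 66.7 and 64.1 with shCr EVs and 8.94, 9.86 and 10.7 with CrOE EVs. It thus fell after all 3 kinds of EV. Socs1, the main inhibitor of interferon signalling in its family, fell by 0.75, 0.73 and 2.01, and Ptpn6, a phosphatase, by 0.70, 0.98 and 1.85. Ptpn6 had only 16 to 24 counts a library with CrOE EVs.

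A further 12 interferon-stimulated genes outside the member list all fell with CrOE EVs, as did 37.0% of all tested genes. With shCon EVs 4 of the 12 rose and 3 fell, beside 18.0% and 20.2% of all tested genes. With shCr EVs 4 rose and 2 fell, beside 18.4% and 18.8%. The Ifitm genes, whose products block viral entry at membranes, did not share the members' rise. Ifitm3 was at 1127, 1033 and 1111 CPM in untreated libraries, 817, 848 and 849 with shCon EVs, 1054, 997 and 1093 with shCr EVs and 100, 109 and 121 with CrOE EVs. Ifitm2 fell with all 3 kinds of EV, with log2 fold changes of -0.99, -0.37 and -3.24. Ifitm1 went from 15.9 to 21.9 CPM in untreated libraries to 2.66 to 2.77 with shCon EVs and 4.16 to 5.19 with shCr EVs, with 0, 0 and 8 counts in the CrOE EV libraries. Ifitm2 and Ifitm3 were called higher with shCr than with shCon EVs, by 0.62 and 0.32.

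Trim14, an adaptor in antiviral signalling, fell by 3.09 with CrOE EVs, where it had only 6 to 9 counts a library. Tor3a, an ATPase induced by interferon, rose by 0.82 and 1.00 with shCon and shCr EVs and fell by 1.51 with CrOE EVs. Eif2ak2, the RNA-activated kinase PKR, fell by 1.72, Samhd1, which depletes nucleotides, by 2.04, Pml, the scaffold of nuclear bodies, by 1.82 and Nmi by 1.43. Over all 32 tested pathway genes, 8 were higher and 13 lower with shCon EVs, 9 and 10 with shCr EVs, and 2 and 28 with CrOE EVs. In the same order, the shares of all tested genes were 18.0% and 20.2%, 18.4% and 18.8%, and 36.7% and 37.0%. Stat3 and Irf2 fell by 1.57 and 1.08 with CrOE EVs. Between CrOE and shCon EVs 2 of the 32 were higher and 28 lower, beside 36.5% and 36.1% of all tested genes. Between CrOE and shCr EVs 1 was higher and 28 lower, beside 36.9% and 37.0%.

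**Figure D5:**
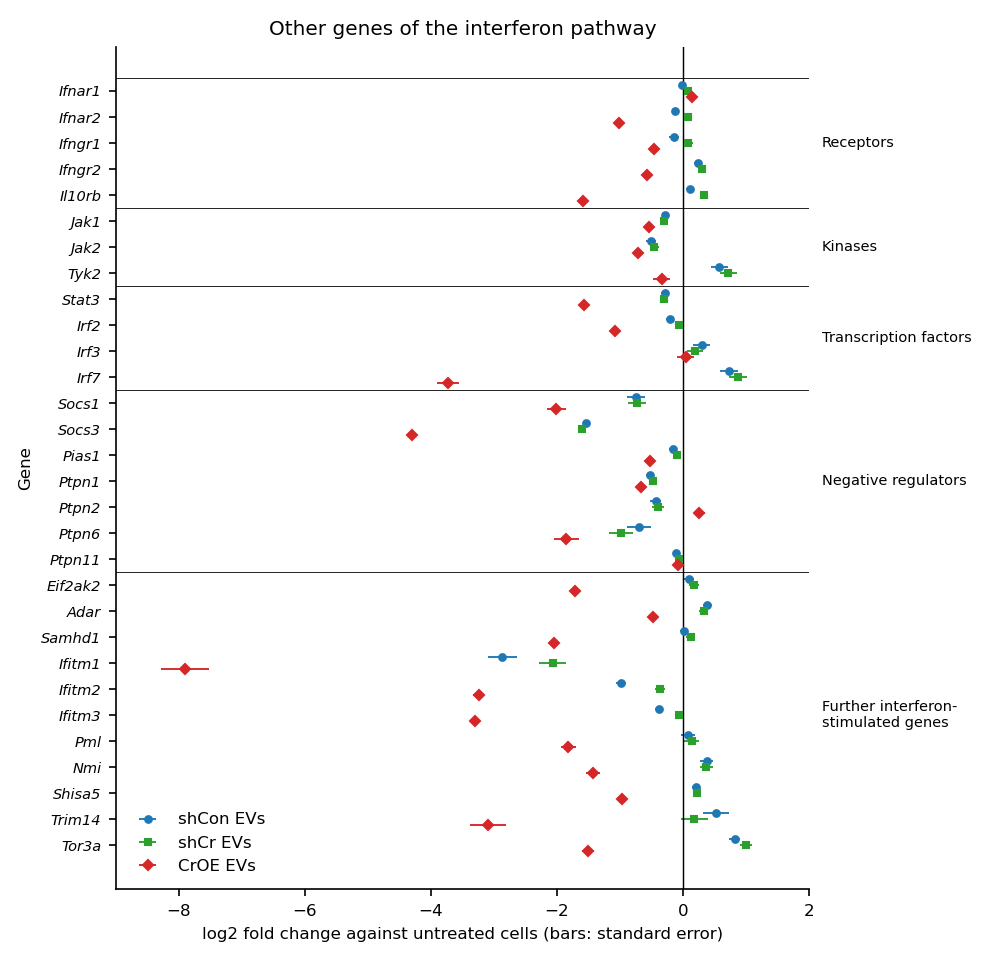
Rows are 30 of the 32 tested pathway genes outside the member list, by role, with the log2 fold change against untreated cells after shCon (circles), shCr (squares) and CrOE EVs (diamonds) and bars for the standard error. Irf7 has the members' pattern, Socs3 and Ifitm1 are left of 0 after all 3 kinds of EV, and Ifnar1, Irf3 and Ptpn11 lie close to 0.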

How the data were processed

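Poly(A) RNA of 12 libraries (4 groups of 3) was sequenced with a directional kit, per the labels' protocols. The deposited table holds estimated counts per gene made by the authors, of which 39.8% are not whole numbers, so the planned count test was run on values rounded to whole numbers. The submitters' processing notes name featureCounts and the build mm39, without versions or settings, and whether strand was used is not given in the sources used here. Columns were matched to libraries by name, except the CrOE columns, which were matched by elimination.

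Counts were fitted in edgeR 4.0.16 (R 4.3.3) with a quasi-likelihood model of all 12 libraries, TMM scaling and its default filter on low counts, which kept 14279 of 32544 genes. The model had 8 residual degrees of freedom. Standard errors (SE) were derived from the test, as the absolute log2 fold change divided by the square root of its F statistic. Benjamini-Hochberg adjustment ran over all genes tested, with a call at an adjusted p under 0.05. The fit was also run on simulated counts, with the same spread in all groups and far fewer changed genes than here. That run does not show how the fit performs with changes as wide as those with CrOE EVs. Alternatives were median-of-ratios scaling, library totals, DESeq2 1.42.0, other filters, unrounded values, a replicate block, a model of only the groups compared and each library left out. In the table, 27 symbols had been turned into dates and were not used as members.

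The members and gene lists were chosen with earlier results of these data known. Members were named with every library's value where they had one of the 3 largest rises or falls in a comparison. So were those called between shCr and shCon EVs and those that went against the others. Members not called were named in this way for every comparison except shCr with shCon EVs. Others shown in full were added as examples. Exon lengths, sequence sharing between genes and antisense overlaps came from GENCODE M21, and promoters from RefSeq, both on GRCm38, which is not the build the notes name. They were joined by symbol. In these models 8 members overlap antisense exons: Irf1, Ifi35, Ifi47, Oasl1, Usp18, Parp9, Dtx3l and Gbp2. Over 10% of the 31-base stretches also occur in another gene for 11 members. Beside the Ifit3 and Oas1 pairs these are Ifit1, Isg15, Rtp4, Herc6, Trim30a, Gbp7 and Igtp. Counts of all these members may share reads with other genes. Some genes of the lists are counted but not reported here by name.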

Additional observations from a re-analysis of the deposited data

Results flagged for a closer look

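Effects against the same untreated libraries differed between kinds of vesicle. For 41 members the level rose with shCon EVs and fell with CrOE EVs, and the vesicles differed by edgeR's test. This was so for 5.60% of all tested genes. For 42 members and 7.51% of all tested genes the same held for shCr against CrOE EVs. Ifi27 fell with both shCon and CrOE EVs and less with CrOE EVs, a difference of 0.79 on the log2 scale. Ifit2 rose with both shCon and shCr EVs and more with shCr EVs, by 0.66.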

How the results depend on the processing

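No member's call changed under any alternative run when CrOE EVs were compared with shCon or shCr EVs. With libraries left out in turn, members called against untreated cells ranged from 36 (without untreated replicate 3) to 42 in the shCon EV comparison. The range was 41 to 46 in the shCr and 46 to 47 in the CrOE EV comparison. Over all genes, calls in these runs numbered 4250 to 5539 (shCon), 4254 to 6698 (shCr) and 10051 to 10410 (CrOE). These runs tested 14423 to 14566 genes each. Calls were lost under at least 1 alternative for 7 members with shCon EVs (Helz2, Ifi47, Ifit1, Iigp1, Irf9, Mx1 and Trim21) and 6 with shCr EVs (Helz2, Irf9, Oas3, Oasl1, Samd9l and Uba7). Calls were gained for Stat2 with shCon EVs (adjusted p in edgeR 0.0223 with the replicate block and 0.00749 in the model of only those groups), Stat2 with shCr EVs (0.0258 without shCr replicate 1) and Oasl1, lower with CrOE EVs (0.0479 without untreated replicate 1). Between shCr and shCon EVs, DESeq2 called 2 members, Ifit2 and Lgals9, and 1570 of 14279 genes. Leaving out a library gave 1 to 7 members. The 1247 calls over all genes in that comparison became 641 in the model of only those groups, and 632 to 1396 with a library left out, the lowest without shCon replicate 2 (688 and 666 without replicates 1 and 3). Ifit2 was called in every alternative. Between shCr and shCon EVs, 24 members with no call changed sign in 37 values. Against untreated cells the signs of 2 uncalled values turned: Oasl1 with shCon EVs was -0.071 without untreated replicate 1, in a range up to 0.28, and Irf1 with shCr EVs was 0.019 without untreated replicate 2, in a range down to -0.12. The causes were not tested.

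Same-numbered libraries showed no steady pairing: 7 of 18 correlations of their deviations were over 0.1 (range -0.344 to 0.569). With 3 libraries a group these correlations depend on each other, so they do not decide whether some libraries were paired. Libraries matched best with their own number in 15 of 36 cases. Libraries of different numbers also shared deviations, with correlations from -0.557 (untreated 2 with shCr 1) to 0.545 (untreated 2 with shCr 3). The source of these was not tested. With the replicate block, members called against untreated cells numbered 44 (shCon), 45 (shCr) and 46 (CrOE), and 1 was called between shCr and shCon EVs. Calls over all 14279 genes in that fit numbered 5691, 5529 and 10657, and 1281 between shCr and shCon EVs. Members and tested pathway genes under 3 CPM with CrOE EVs rest on few counts there, which limits how exactly their falls are known.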
